A study of Mus musculus with 16 samples.

Results

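The 4 tissue inhibitors of metalloproteinases, Timp1 to Timp4, and 6 matrix metalloproteinases, Mmp2, Mmp8, Mmp9, Mmp12, Mmp14 and Mmp19, were followed in allergen-challenged mouse lungs after smoke exposure in utero. Every probe set whose annotation gave exactly 1 symbol equal to 1 of these 10 genes or a synonym was taken, which gave 24 of 45037 probe sets and 10 of 18193 genes. The lungs were left lungs of Balb/c mice aged 23 weeks, 1 lung on each Affymetrix mouse 430 2.0 array and 4 lungs in each group. SHS females and SHS males had been carried by mothers breathing second-hand smoke, given as sidestream smoke with 10 mg/m3 of particles for 5 h a day on 7 days a week. Air females and air males had been carried under filtered air on the same schedule. All 16 mice received ovalbumin (OVA), the egg allergen of many asthma models, by injection at 19 and 21 weeks and as an aerosol in weeks 22 and 23. Lungs free of OVA were not part of the comparison, and the labels do not tie littermates to their mothers. Values are log2 intensities as deposited, and each difference is SHS minus air within a sex, with its standard error from limma. A call is an adjusted p under 0.05, after Benjamini-Hochberg adjustment over all 45037 probe sets. The labels name the lungs of a group as biological replicates.

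Matrix metalloproteinases are zinc enzymes that cut collagens, elastin and other matrix proteins, and also release or inactivate cytokines and receptors. TIMPs are small secreted proteins that bind the active site of these enzymes and block it. In the lung the balance between them is known for its part in airway remodelling, in emphysema and in the movement of leukocytes through tissue.

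Timp1 was the gene of the 10 that was called in both sexes, and the start of its gene is shown to give the letters that inducing factors are known to read. The gene lies at chrX:20870166-20874737 in the mouse assembly GRCm38.p6, and the printed stretch is the 250 bases before its RefSeq start, chrX:20869916-20870165 on the plus strand. Capitals mark CAGGAAG, letters bound by ETS factors. The second line, chrX:20870179-20870208, covers bases 14 to 43 after the start, and capitals there mark TGAGTAA, a variant of the letters bound by AP-1 (Fos and Jun) factors. The third line is the stretch before the second RefSeq start of Mmp12, chr9:7347124-7347373 on the plus strand, the member promoter that held the AP-1 letters TGANTCA, in capitals.
Timp1 upstream: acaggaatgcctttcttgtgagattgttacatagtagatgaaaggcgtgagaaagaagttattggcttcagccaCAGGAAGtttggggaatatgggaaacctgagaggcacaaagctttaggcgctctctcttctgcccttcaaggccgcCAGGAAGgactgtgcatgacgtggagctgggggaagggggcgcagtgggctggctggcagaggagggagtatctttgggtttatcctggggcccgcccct
Timp1 after the start: agcggtgggtggaTGAGTAAtgcgtccagg
Mmp12 upstream: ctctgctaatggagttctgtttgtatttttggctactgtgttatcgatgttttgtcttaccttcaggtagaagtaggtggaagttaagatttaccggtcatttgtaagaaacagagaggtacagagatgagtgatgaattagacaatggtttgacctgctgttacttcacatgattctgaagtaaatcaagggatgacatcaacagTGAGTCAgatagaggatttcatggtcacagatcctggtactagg
RefSeq promoters of 300 bases were at hand for Timp1, Timp2, Timp3, Timp4, Mmp8, Mmp12 and Mmp14, 7 of the 10 genes with 8 starts, and were searched on both strands. TGANTCA stood in 1 of these 7 genes, against 7.81% of 32851 mouse promoters of the same length, and TGAGTAA in 1 of 7, against 2.68%. CAGGAAG stood in 3 of 7 genes (Timp1, Timp3 and Timp4), against 13.3%, and in Timp1 it also began 40 bases after the start. The STAT letters TTCNNNGAA stood in 0 of 7, against 8.3%, and the Sp1 letters GGGCGG in 4 of 7, against 35.7%. These are matches of letters and not measured binding.

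Across all arrays the sexes separated first, with correlations of 0.990 to 0.998 within a sex and 0.959 to 0.974 between sexes. The fourth SHS female (replicate 4) stood apart: its mean correlation was 0.992 with the other SHS females and 0.995 with the air females. Member calls and list counts in females that changed when it was left out are given both ways. This lung was picked by its own values, so fits without it are descriptions and not independent tests. Leaving out an SHS lung close to air favours larger differences and more calls. Probe sets called in females were 1294 with all lungs and 3604 without this lung, against 657, 683 and 723 without SHS female 1, 2 or 3. The lung markers Sftpc, Scgb1a1 and Ager were among the brightest probe sets, with mean log2 intensities of 15.1, 15.1 and 14.4. The 3' to 5' differences of the Gapdh and Actb controls, which follow RNA integrity, overlapped between SHS and air in both sexes (two-sided exact permutation p of 0.743 and 0.486 in females and of 0.457 and 0.143 in males, where 0.0286 is the smallest possible). Between the sexes the same controls did not overlap. Gapdh averaged -0.43 in SHS and -0.44 in air females, against 0.25 in SHS and 0.33 in air males. Actb averaged 0.18 in SHS and 0.20 in air females, against 1.07 in SHS and 1.17 in air males. The separation of the sexes thus came with a difference in these controls. The part of RNA integrity or processing in it was not tested. In lung RNA, fewer cells of a type and less RNA per cell cannot be told apart.

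Of the 10 genes, each read from its brightest probe set by mean value, 1 passed the test in SHS females and 1 in SHS males, and both times it was Timp1. Over all 18193 genes, 3.29% were called higher and 0.676% lower in SHS females, and 4.17% higher and 2.47% lower in SHS males. The median log2 difference of the 10 genes was 0.15 in females and 0.10 in males, beside 0.00 and 0.01 over all genes. By probe set, 1 of 24 was called higher in females, where 2.36% of all probe sets were, and 2 of 24 in males, where 3.07% were. The 4 SHS arrays lay above all 4 air arrays for 1 of the 24 probe sets in females (5.61% of all probe sets) and 3 in males (7.87%). They lay below all air arrays for 2 of 24 in females (2.64%) and 0 of 24 in males (7.51%). The difference between the sexes in the SHS effect was called for 0 of 45037 probe sets (0%) by limma, although 3709 had an unadjusted p under 0.05, so no member is said to respond differently in females and males.

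**Figure D1:**
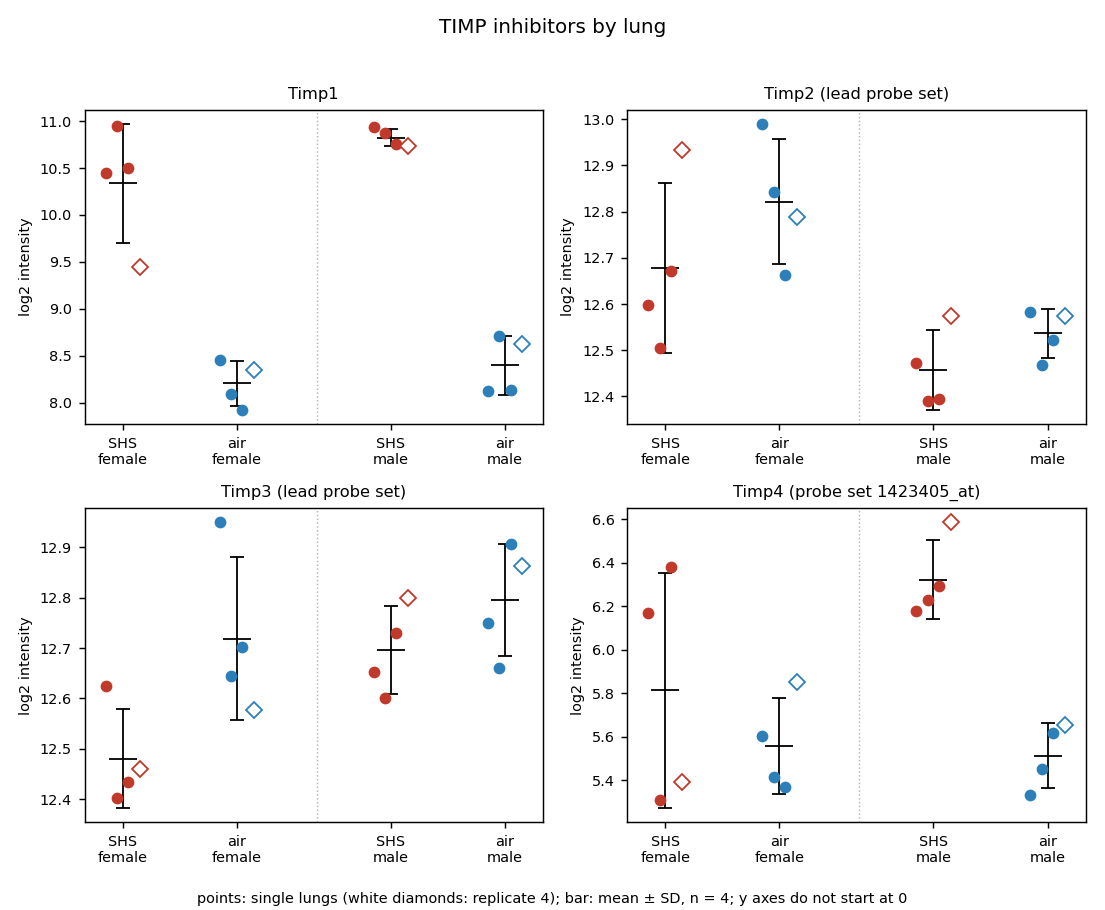
Log2 intensity of the probe set with the highest mean for Timp1, Timp2 and Timp3, and of the Timp4 probe set that was called in males, in each lung, with points for arrays (white diamonds for replicate 4) and lines for the group mean and SD (n = 4), SHS beside air within each sex. Timp1 arrays of SHS females lie at 9.45 and above and those of air females at 8.46 and below. Those of SHS males lie at 10.74 and above and those of air males at 8.71 and below, while the groups of Timp2 overlap.

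Timp1, the secreted and inflammation-inducible inhibitor, was higher in every SHS lung than in any air lung of the same sex. It had 1 probe set (1460227_at). SHS females measured 10.45, 10.95, 10.50 and 9.45, against 8.46, 8.09, 7.93 and 8.35 in air females. SHS males measured 10.93, 10.87, 10.76 and 10.74, against 8.12, 8.71, 8.13 and 8.62 in air males. The SHS males lay close together (SD 0.09) and the SHS females did not (SD 0.63), with the fourth SHS female lowest. Timp1 rose by 2.13 ± 0.23 in females, which is 4.38-fold (adjusted p = 0.000187, limma), and by 2.43 ± 0.23 in males, which is 5.38-fold (adjusted p = 4.19e-05, limma). The difference between these effects was -0.30 ± 0.32 with a 95% interval of -0.97 to 0.37. Without the fourth SHS female the female difference was 2.43 ± 0.16 (adjusted p = 7.43e-07), equal to that of males to 2 decimals.

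The genes whose pattern was most like that of Timp1 were found over all 16 arrays, after the mean of the air arrays of the same sex was taken from each value. By the root mean square of the remaining log2 difference these were Saa3 (0.25), Fxyd4 (0.41), Ocstamp (0.47), Ch25h (0.54) and Ccl24 (0.55). Saa3 is an acute-phase protein, Fxyd4 a regulator of the sodium pump, Ocstamp a protein of macrophage fusion, Ch25h a cholesterol 25-hydroxylase and Ccl24 an eotaxin. The fourth SHS female was the lowest of its group in Saa3 (9.49, against 11.24 to 11.64 in the other SHS females) and in Ccl24 (8.44, against 10.53 to 11.83), as it was in Timp1. The choice of these genes by closeness to Timp1 over the same arrays favours this.

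Timp2, which inhibits Mmp2 and also helps Mmp14 to activate it, is encoded at chr11:118301061-118355411 and had 6 probe sets, none of them called. At its brightest probe set (1454677_at) SHS females measured 12.60, 12.51, 12.67 and 12.93, against 12.99, 12.84, 12.66 and 12.79 in air females. The male values were 12.47, 12.39, 12.39 and 12.57 in SHS males, against 12.58, 12.47, 12.52 and 12.57 in air males. The groups overlapped in both sexes, with differences of -0.14 ± 0.09 in females (95% interval -0.33 to 0.04) and -0.08 ± 0.09 in males. Over the 6 probe sets the differences ran from -0.14 to 0.05 in females and from -0.17 to 0.02 in males. Without the fourth SHS female the brightest gave -0.23 in females, also not called (adjusted p = 0.0979, limma).

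Timp3, the inhibitor that stays bound to the matrix and also blocks ADAM proteases such as Adam17, is encoded at chr10:86300412-86349505. Its brightest probe set (1449335_at) gave 12.62, 12.40, 12.43 and 12.46 in SHS females, against 12.95, 12.65, 12.70 and 12.58 in air females. A second one (1449334_at) gave 10.82, 10.85, 10.41 and 10.83 in SHS females, against 11.17, 11.01, 10.98 and 10.88 in air females. At the brightest, 3 of the 4 SHS females lay below every air female, and at the second all 4 did. None of the 4 Timp3 probe sets passed the test in females: the differences were -0.24, -0.21, -0.28 and -0.14, with adjusted p of 0.158, 0.205, 0.11 and 0.517. Without the fourth SHS female 1449334_at gave -0.31, also not called (adjusted p = 0.0553, limma). In males the brightest gave 12.65, 12.60, 12.73 and 12.80 after SHS, against 12.75, 12.66, 12.91 and 12.86 after air, a difference of -0.10 ± 0.09 (adjusted p = 0.569).

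Timp4, an inhibitor with restricted expression that is best known from heart muscle, is encoded at chr6:115244444-115252205 and had 2 probe sets, both dimmer than the median probe set. The dimmer of them (1423405_at) was called in males. There SHS males measured 6.18, 6.23, 6.29 and 6.59, against 5.33, 5.45, 5.62 and 5.66 in air males, so the groups did not overlap. It rose by 0.81 ± 0.19, or 1.75-fold (adjusted p = 0.0202, limma), and the call was lost without SHS male 3 (0.82, adjusted p = 0.0526), SHS male 4 (0.72, 0.0539) or air male 1 (0.75, 0.0651). The other probe set (1450974_at) gave 6.29, 6.26, 6.25 and 6.24 in SHS males, against 5.96, 6.13, 6.20 and 6.09 in air males, a difference of 0.16 ± 0.10 that was not called (adjusted p = 0.379). In females the dimmer probe set scattered, with 6.17, 5.31, 6.38 and 5.39 in SHS females, against 5.60, 5.41, 5.37 and 5.85 in air females (0.25 ± 0.19, adjusted p = 0.57). Without the fourth SHS female this difference was 0.39 (adjusted p = 0.25, limma). With all lungs the female minus male difference of the effects was -0.55 ± 0.27 (adjusted p = 0.615). Of the cardiac muscle markers, 0 of 7 were called higher in males (3 at an unadjusted p under 0.05, limma, which 20.2% of all probe sets had in males and 16% in females, in either direction) and Myh7 was called lower, and their median log2 difference there was 0.72. The log2 of the summed intensity of these markers, which the brightest of them weigh on most, ran from 13.03 to 13.47 in SHS males, against 12.50 to 13.29 in air males. Their part in the Timp4 result was not tested.

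**Figure D2:**
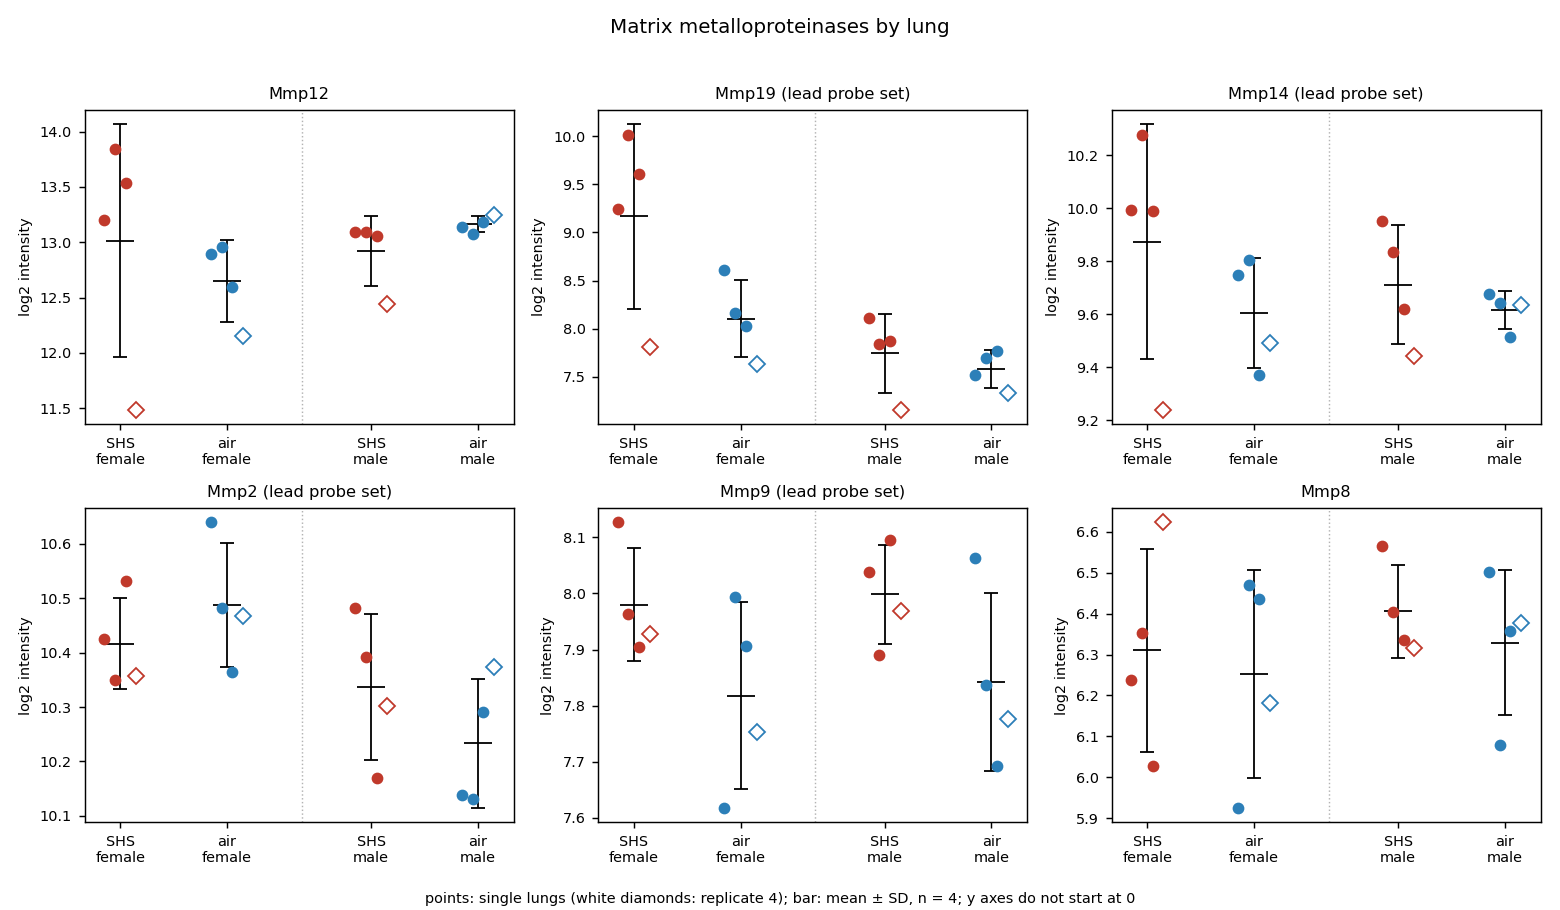
Log2 intensity of the probe set with the highest mean for each of the 6 metalloproteinases in each lung, with points for arrays (white diamonds for replicate 4) and lines for the group mean and SD (n = 4), SHS beside air within each sex. The fourth SHS female, at 11.49 for Mmp12 and 7.81 for Mmp19, lies below the other 3 SHS females in both.

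Mmp12, the macrophage elastase, is encoded at chr9:7344397-7360461 and had 1 probe set (1449153_at). SHS females measured 13.20, 13.85, 13.53 and 11.49, against 12.90, 12.95, 12.60 and 12.15 in air females. The first 3 SHS females were thus above all air females and the fourth below all of them, and with all 4 the difference was 0.37 ± 0.34 (adjusted p = 0.671, limma). Without the fourth SHS female it was 0.88 ± 0.19 (adjusted p = 0.00807). SHS males measured 13.09, 13.09, 13.05 and 12.44, against 13.14, 13.08, 13.18 and 13.25 in air males, a difference of -0.24 ± 0.34 (adjusted p = 0.755) and of -0.08 (adjusted p = 0.935) without SHS male 4. Replicate 4 was the lowest lung in SHS females, air females and SHS males, and the highest in air males.

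Mmp19, a metalloproteinase that cuts components of basement membranes, is encoded at chr10:128790910-128800827. At its brightest probe set (1421977_at) SHS females measured 9.24, 10.02, 9.61 and 7.81, against 8.61, 8.16, 8.02 and 7.63 in air females. The same 3 SHS females were above every air female, and the fourth was not. The difference of 1.06 ± 0.34, or 2.09-fold, did not pass the test (adjusted p = 0.104, limma), and without the fourth SHS female it was 1.52 ± 0.23 (adjusted p = 0.000543). A second probe set (1421976_at) gave 8.75, 9.84, 9.01 and 7.62 in SHS females, against 8.36, 7.94, 7.77 and 7.61 in air females. Its difference was 0.89 ± 0.32 (adjusted p = 0.161) and 1.28 without the fourth SHS female (adjusted p = 0.00369), so both probe sets gave the same order of lungs. In males the brighter probe set gave 8.11, 7.84, 7.87 and 7.16 after SHS, against 7.52, 7.70, 7.77 and 7.33 after air, a difference of 0.16 ± 0.34 (adjusted p = 0.842). The effect in females minus that in males was 0.90 ± 0.48 (adjusted p = 0.649), and 1.35 (adjusted p = 0.197) without the fourth SHS female. At the brighter probe set replicate 4 was the lowest lung of every group, air females and air males included. At 1421976_at it was the lowest in SHS females, air females and SHS males, but not in air males. The reason was not tested.

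Mmp14, the membrane-bound enzyme that activates Mmp2 together with Timp2, is encoded at chr14:54431598-54442456. Its brightest probe set (1448383_at) gave 9.99, 10.27, 9.99 and 9.24 in SHS females, against 9.75, 9.81, 9.37 and 9.49 in air females. At this probe set too 3 SHS females lay above all air females and the fourth below them, and the difference was 0.27 ± 0.17 (adjusted p = 0.466, limma). A second probe set (1416572_at) gave 0.34 ± 0.11 (adjusted p = 0.128), with the fourth SHS female within the range of air females. The third (1440920_at) gave 0.10 ± 0.13 (adjusted p = 0.781). Without the fourth SHS female the brightest gave 0.48 ± 0.12 (adjusted p = 0.0225) and the second 0.48 (adjusted p = 0.00306), whereas the third gave 0.24 (adjusted p = 0.23). SHS males measured 9.95, 9.84, 9.62 and 9.44, against 9.68, 9.64, 9.51 and 9.64 in air males (0.09 ± 0.17, adjusted p = 0.808).

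Mmp2 (gelatinase A), the enzyme that Mmp14 and Timp2 act on, is encoded at chr8:92827290-92853421 and overlapped in both sexes. Its brighter probe set (1439364_a_at) gave 10.43, 10.35, 10.53 and 10.36 in SHS females, against 10.64, 10.48, 10.36 and 10.47 in air females (-0.07 ± 0.08, adjusted p = 0.743). The male values were 10.48, 10.39, 10.17 and 10.30 in SHS males, against 10.14, 10.13, 10.29 and 10.37 in air males (0.10 ± 0.08, adjusted p = 0.536). The activating trio of Mmp14, Timp2 and Mmp2 thus held no call in either sex when all lungs were used.

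Mmp8 and Mmp9, the collagenase and the gelatinase that neutrophils store in granules, were not called. Mmp8 (1449366_at), at chr9:7558429-7568486, gave 6.24, 6.35, 6.03 and 6.62 in SHS females, against 5.92, 6.47, 6.44 and 6.18 in air females (0.06 ± 0.13, adjusted p = 0.887). In SHS males it gave 6.57, 6.40, 6.33 and 6.32, against 6.50, 6.08, 6.36 and 6.38 in air males (0.08 ± 0.13, adjusted p = 0.804). This probe set was dimmer than the median probe set, at the 39.2 percentile of mean values, and its groups overlapped. Mmp9 (1416298_at), at chr2:164940326-164955850, gave 8.13, 7.96, 7.90 and 7.93 in SHS females, against 7.62, 7.99, 7.91 and 7.75 in air females (0.16 ± 0.09, adjusted p = 0.423). In SHS males it gave 8.04, 7.89, 8.10 and 7.97, against 8.06, 7.84, 7.69 and 7.78 in air males (0.16 ± 0.09, adjusted p = 0.371). A second Mmp9 probe set (1448291_at) gave 0.22 ± 0.11 in females (adjusted p = 0.337, limma), where 3 SHS females lay above all air females. In males it gave 0.14 ± 0.11 (adjusted p = 0.526). Of 10 neutrophil markers, 0 were called in females by limma. There 1 was higher at an unadjusted p under 0.05, which 16% of all probe sets had in females, in either direction. In males 1, the chemokine receptor Cxcr2, was called higher, a call that was lost without air male 3 (0.46, adjusted p = 0.057). In females 1 of the 10 was called higher without the fourth SHS female. The median log2 difference of these markers was 0.24 in females and 0.32 in males.

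**Figure D3:**
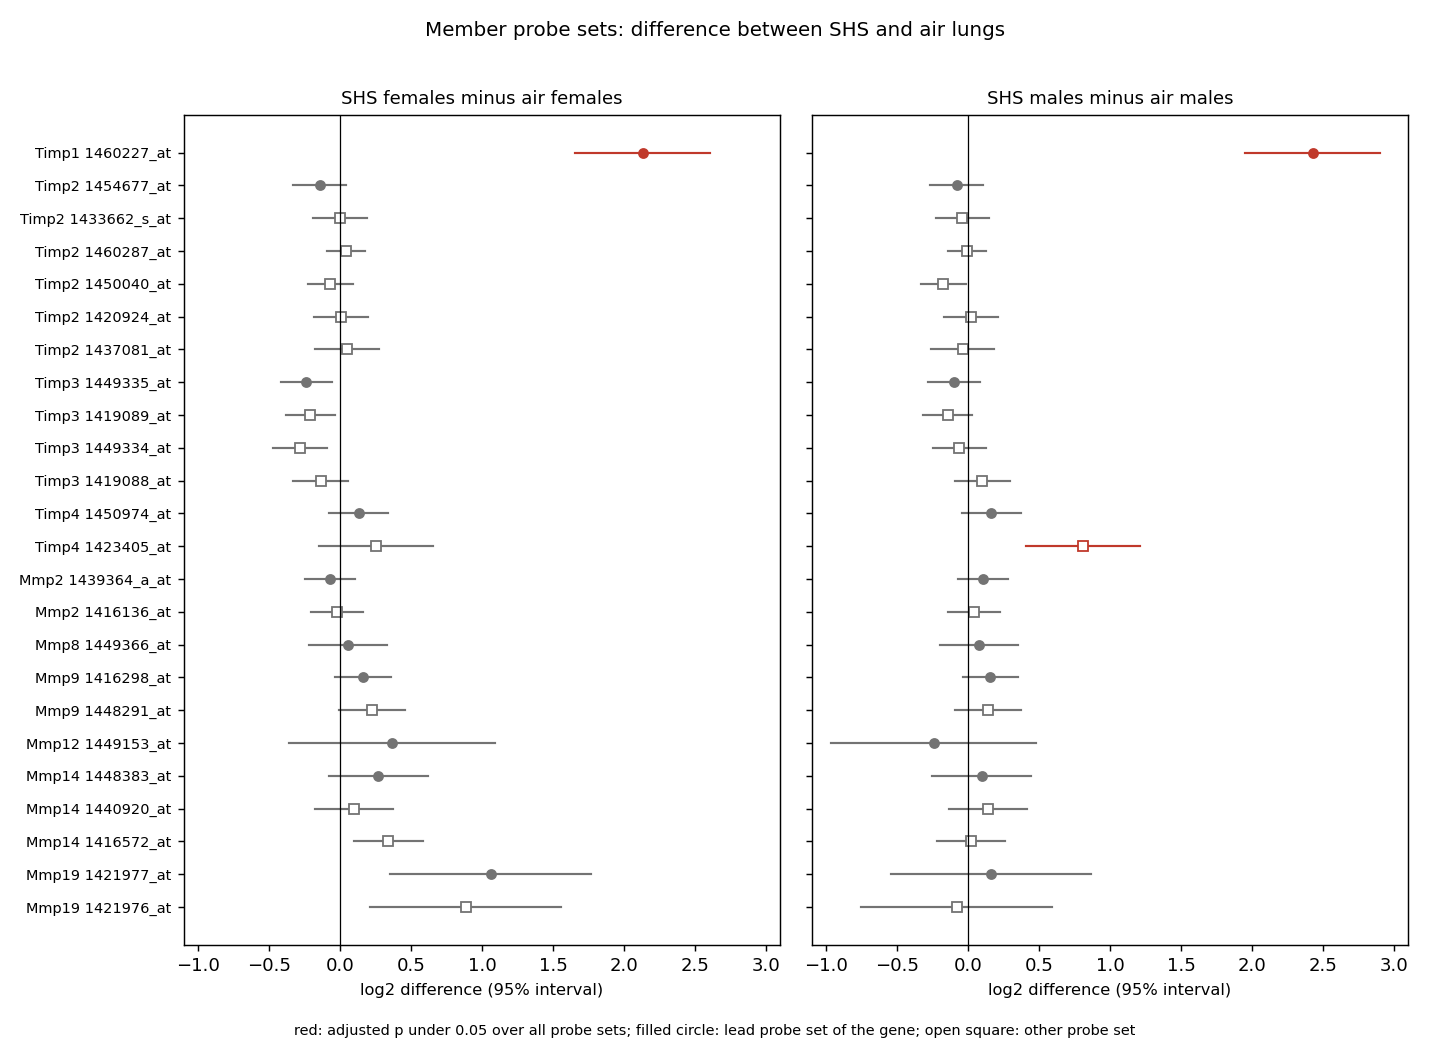
Log2 difference, SHS minus air, of each of the 24 probe sets in females and in males, with 95% intervals from limma. The Timp1 interval runs from 1.66 to 2.61 in females, where that of Mmp19 1421977_at (0.35 to 1.77) reaches into it, and from 1.95 to 2.90 in males, above all others.

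When the fourth SHS female was left out, 4 of the 10 genes were called higher in females, Timp1, Mmp12, Mmp14 and Mmp19. The share of all genes called higher also grew, to 7.66%, with 3.45% called lower. These calls come after a lung close to air was picked by its values, which favours them. Markers of several cell types moved with this lung, some lower and some higher than in the other SHS females. Over 11 markers of monocyte-derived macrophages, the median deviation from the air mean was 0.31, 0.52 and 0.48 in SHS females 1 to 3 and -0.03 in the fourth. The log2 of their summed intensity was 14.28 in the fourth SHS female, against 14.74 to 15.08 in the other 3 and 14.23 to 14.39 in air females. For 4 eosinophil markers the deviations were 0.71, 0.42 and 0.83, and -0.89 in the fourth, where the log2 of their summed intensity was 8.52, against 9.76 to 10.14 in the other 3 and 9.30 to 9.62 in air females. In males the fourth SHS lung was likewise the lowest of its group for eosinophil markers (8.86, against 9.69 to 10.05 in the other SHS males and 9.51 to 9.75 in air males) and for Mmp12. Other lists had their highest sum among SHS females in the fourth. For neutrophil markers it was 12.95, against 11.82 to 12.42 in the other 3 and 11.80 to 12.40 in air females. For endothelial markers it was 15.115, against 14.68 to 14.76 and 14.775 to 14.96. For club cell markers it was 16.34, against 15.99 to 16.14 and 16.21 to 16.52. Log2 intensities have no true zero, so none of these markers can be called absent. The part of these cells in the Mmp12, Mmp14 and Mmp19 values was not tested.

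**Figure D4:**
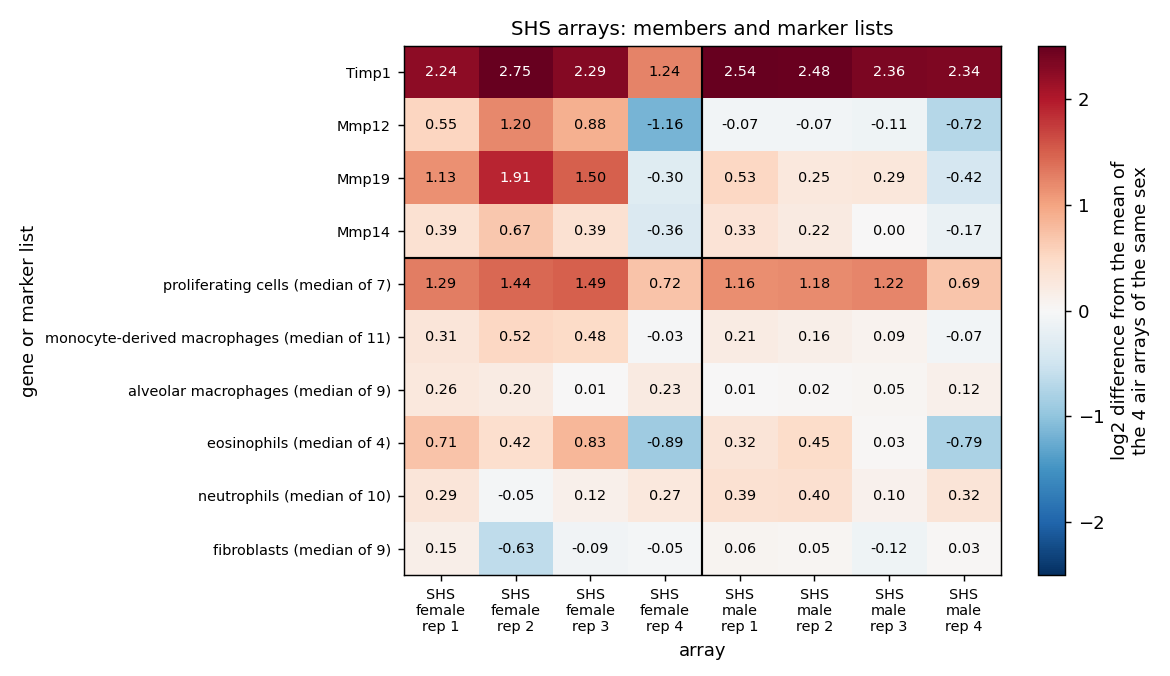
Deviation of each SHS array from the mean of the 4 air arrays of the same sex (log2), for Timp1, Mmp12, Mmp19 and Mmp14 at their brightest probe sets and for marker lists (median over the list). The fourth SHS female shows 1.24 for Timp1, where the other SHS females show 2.24 to 2.75, and a negative median for eosinophil markers.

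Of the cell marker lists, proliferation markers moved in both sexes: 7 of 7 were called higher in females (median 1.23) and 7 of 7 in males (median 1.05), and without the fourth SHS female 7 of 7 in females (median 1.40). The largest were Rrm2, a subunit of ribonucleotide reductase, with 1.43 ± 0.16 in females and 1.33 ± 0.16 in males, and the mitotic protein Birc5, with 1.38 ± 0.15 in females and 1.43 ± 0.15 in males. Of 11 markers of monocyte-derived macrophages 2 were called in each sex, and 7 in females without the fourth SHS female. They were Mrc1, a mannose receptor, with 0.72 ± 0.12 in females and 0.66 ± 0.12 in males, and Arg1, arginase 1, with 2.65 ± 0.51 in females and 1.82 ± 0.51 in males. The male call of Arg1 (adjusted p = 0.0466) was lost in 12 of 16 fits that each left out 1 array, at adjusted p of 0.0551 to 0.128. Alveolar macrophage markers had 0 of 9 called higher in either sex by limma (3 in females and 2 in males at an unadjusted p under 0.05), 1 of 9 was called higher in females without the fourth SHS female, and the cholesterol transporter Abcg1 was lower in males (-0.39 ± 0.07, adjusted p = 0.00545). Fibroblast markers, which cover cells known to make Timp2, Timp3 and Mmp2, had 1 of 9 lower in females, the transcription factor Tcf21 (-0.56 ± 0.09, adjusted p = 0.00315), and 3 of 9 lower and 1 higher without the fourth SHS female. Their median log2 difference was -0.25 in females and -0.02 in males, and their part in the Timp3 values was not tested. Of 4 eosinophil markers, 0 were called in either sex by limma (0 in females and 1 in males at an unadjusted p under 0.05), and 2 were called higher in females without the fourth SHS female. Beside these unadjusted counts of macrophage and eosinophil markers, 16% of all probe sets in females and 20.2% in males had an unadjusted p under 0.05, in either direction.

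Calls in the remaining marker lists were few. The endothelial receptor Tek was lower in females (-0.46 ± 0.11, adjusted p = 0.0356, lost in 7 of 16 fits that each left out 1 array). Of 5 club cell markers the secretoglobin Scgb3a2 was lower in females (-0.84 ± 0.16, adjusted p = 0.00692) and in males (-0.65 ± 0.16, adjusted p = 0.0251, lost in 6 of 16). The surfactant lipid transporter Abca3 was lower in males (-0.23 ± 0.07, adjusted p = 0.0485, lost in 12 of 16), and the cardiac myosin Myh7 was lower in both sexes (-0.62 ± 0.10 in females and -0.94 ± 0.10 in males). The B cell receptor for IgE, Fcer2a, was higher in females (1.03 ± 0.24, adjusted p = 0.0229) and in males (0.89 ± 0.24, adjusted p = 0.0368), each lost in 6 of 16. The lists of smooth muscle, ciliated cells, mesothelium, T cells and mast cells held 0 calls in either sex by limma. At an unadjusted p under 0.05, smooth muscle had 3 of 6 higher in females and 3 in males, and T cells 3 of 6 higher in females. Over all probe sets 16% in females and 20.2% in males had such a p, in either direction. Without the fourth SHS female, calls in females were 2 of 6 higher for smooth muscle, 2 of 6 lower for ciliated cells, 1 of 6 higher for T cells and 1 of 6 lower for mast cells, and 0 of 5 for mesothelium. Without it, 2 of 8 endothelial and 2 of 5 club cell markers were lower and 2 of 5 B cell markers higher, while cardiac muscle kept a count of 1 of 7 lower and alveolar epithelium one of 0 of 9.

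Of 12 other matrix metalloproteinases, 0 were called in either sex by limma, while 2 were higher in females and 1 in males at an unadjusted p under 0.05. Such a p was found for 16% of all probe sets in females and 20.2% in males, in either direction. In females 1 of the 12, Mmp13, was called higher without the fourth SHS female (1.62 ± 0.31, adjusted p = 0.00315). The medians of the 12 were 0.11 in females and -0.00 in males. Of 18 ADAM and ADAMTS proteases, 1 was higher and 1 lower in females, Adam9 (0.31 ± 0.07, adjusted p = 0.017) and Adamts1 (-0.46 ± 0.12, adjusted p = 0.0384). The Adam9 call was lost without SHS female 2 or 3 or air female 3 or 4 (0.27 to 0.30, adjusted p 0.0574 to 0.066). That of Adamts1 was lost without SHS female 1, 2 or 3, air female 1, 3 or 4 or SHS male 2 (-0.51 to -0.34, adjusted p 0.0521 to 0.126). When the fourth SHS female was left out, 3 of 18 were called higher in females (Adam8, Adam9 and Adamts4) and 2 lower (Adamts1 and Adamts10). Adam9 is a membrane-bound sheddase and Adamts1 an aggrecan- and versican-cutting protease. In males 2 of 18 were higher, the aggrecanase Adamts4 (0.51 ± 0.11, adjusted p = 0.00949) and Adam12 (0.35 ± 0.09, adjusted p = 0.0347). The Adam12 call was lost without SHS male 2, 3 or 4 or air male 1, 2 or 3 (0.31 to 0.39, adjusted p 0.0541 to 0.109).

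Of 16 other inhibitors, activators and binding partners of metalloproteinases, 2 were higher in females, and 2 were higher and 1 lower in males. Tfpi2, a protease inhibitor held in the matrix, rose by 0.73 ± 0.12 in females (adjusted p = 0.00282, limma) and by 0.44 ± 0.12 in males (adjusted p = 0.0454). The male call of Tfpi2 was lost in 11 of 16 fits that each left out 1 array, at adjusted p of 0.052 to 0.135. Plat, tissue plasminogen activator, rose by 0.42 ± 0.10 in females (adjusted p = 0.0269), and this was lost without SHS female 1 or 2 or air female 3 or 4 (0.37 to 0.43, adjusted p 0.0615 to 0.0945). Lcn2, which binds Mmp9 and protects it from breakdown, rose by 0.87 ± 0.15 in males (adjusted p = 0.0029) and measured 0.56 in females (adjusted p = 0.0546). Thbs2, a matrix protein that helps to clear Mmp2, was lower in males by -0.46 ± 0.09 (adjusted p = 0.00949). Without the fourth SHS female 5 of 16 were called higher in females (Tfpi2, Plat, Lcn2, Cd44 and Thbs1) and 1 lower, the membrane-anchored inhibitor Reck (-0.54 ± 0.10, adjusted p = 0.00224), which was singled out after its value was seen. The medians of the list were 0.07 in females and 0.11 in males.

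Of 21 inducers of Timp1 and of metalloproteinase genes, 2 were higher in females, and 4 were higher and 1 lower in males, with medians of 0.07 in females and 0.16 in males. The inducers called higher in females were Il1b, Il6 and Il13 without the fourth SHS female, 3 in all. Il6, a cytokine that induces Timp1 through Stat3, rose by 1.15 ± 0.26 in females (adjusted p = 0.0212, limma) and by 1.68 ± 0.26 in males (adjusted p = 0.00137). Its probe set was dim, at the 35.7 percentile of mean values. The female call of Il6 was lost without SHS female 1, 2 or 3 or air female 2 or 3 (0.91 to 1.15, adjusted p 0.0592 to 0.0841). Il1b rose by 0.71 ± 0.14 in females (adjusted p = 0.0082) and by 0.71 ± 0.14 in males (adjusted p = 0.00554). In males the oncostatin M receptor Osmr rose by 0.27 ± 0.06 (adjusted p = 0.0153), a call lost without SHS male 3 (0.26, adjusted p = 0.0535). Stat3 rose by 0.24 ± 0.06 there (adjusted p = 0.0368), lost in 8 of 16 fits that each left out 1 array, at adjusted p of 0.05 to 0.102. Il13ra1, a receptor chain for IL-13, was lower in males by -0.38 ± 0.08 (adjusted p = 0.0093).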

How the data were processed

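Total RNA (Trizol) was labelled with biotin as cRNA and each of 16 lungs was put on its own array, per the labels' protocols. The authors deposited 1 log2 value per probe set and array, with array medians from 7.00 to 7.04. The methods of probe summary and of normalization are not given in the sources used here. Limma is the tool listed in the submitters' processing notes, with no version. Values entered the fits unaltered. Of 45101 features, 64 controls were left out. Of the remaining 45037, 34945 had 1 symbol, 932 several and 9160 none.

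Means of the 4 groups were fitted on all 16 arrays with limma 3.58.1 in R 4.3.3 (package data.table, version 1.17.8), with 12 residual and 5.56 prior degrees of freedom, tested two-sided and adjusted by Benjamini-Hochberg. The brightest probe set by mean over all 16 arrays, females and males together, stood for a gene. The members and the lists were chosen with earlier results of these data known, so list counts are descriptions. The 4 pathway and 16 cell lists held, with the members, 212 entries, of which 190 were measured. From each list the called genes with the largest difference were eligible to be named, up to 4 in each direction and sex. The number of arrays limits the precision. Alternatives were quantile normalization, median centring, a filter on dim probe sets, the replicate number as a block, only the groups compared, any probe set of a gene, a call at 0.10, a trend in the prior with robust fitting, array weights, each array left out, and both SHS arrays numbered 4 left out. Promoters came from RefSeq (GRCm38.p6). Figures used matplotlib 3.10.9 in Python 3.11.15 with pandas 2.3.3.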

Additional observations from a re-analysis of the deposited data

Results flagged for a closer look

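For 7 of 96 sets of 4 lungs (24 probe sets in 4 groups), the highest or lowest lung stood far from the other 3; the gap was a larger part of the group's range than Dixon's critical value. Chance gives this in about 1 in 20 sets. Mmp12 in SHS male 4 was 0.61 below the next lung (gap over range 0.942). Timp3 in SHS female 3 was the lowest at 2 probe sets, by 0.28 (0.894) and by 0.41 (0.925). Timp2 at 1437081_at was highest in SHS female 2 by 0.33 (0.861) and in SHS male 3 by 0.36 (0.936). Timp2 at 1433662_s_at was highest in air female 2 by 0.19 (0.843). Mmp14 at 1440920_at was lowest in air female 3 by 0.27 (0.861).

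Osmr, a receptor for oncostatin M, lay on opposite sides of the air lungs in the sexes. All 4 SHS females lay below the air female mean (-0.12, adjusted p = 0.347) and SHS males above that of air males (0.27, adjusted p = 0.0153). The effect in females minus that in males was -0.39 ± 0.09, which did not pass limma's test over all probe sets (adjusted p = 0.383).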

How the results depend on the processing

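Timp1 was called in both sexes under all 25 alternatives, between 1.93 and 2.43 in females and between 2.34 and 2.53 in males. Members called in females were 1 in the analysis as reported, 2 with array weights, 4 without both SHS arrays numbered 4, and 1 to 4 with 1 array left out, where 4 was the value without SHS female 4. Members called in males were 1, also with any 1 array left out, and 2 when any probe set of a gene could be called. The numbers of arrays do not pair the lungs by their deviations (same-number r of -0.19 to 0.28 in females and 0.05 to 0.22 in males; 2 and 1 of 4 correlated best with their own number). With a replicate block 1023 probe sets were called in females and 1716 in males, and members called in females were 2, because Mmp19 reached an adjusted p of 0.0349; no other member call changed with it.

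Over all probe sets, 1294 were called in females and 2332 in males. In females there were 448 with only the groups compared, 3985 with array weights, 2334 at an adjusted p under 0.10 and 3954 without both SHS arrays numbered 4. In males there were 4398 with array weights and 4073 at 0.10. With 1 array left out there were 657 (SHS female 1) to 3604 (SHS female 4) in females and 1073 (SHS male 3) to 3153 (SHS female 4, through the shared spread) in males. The female count was also 683, 723, 674, 688 and 797 without SHS female 2, SHS female 3, air female 2, air female 3 and air female 4, and the male count was 1220, 1370, 1282 and 1178 without SHS male 1, SHS male 2, air male 1 and air male 3. Quantile normalization gave 861 higher and 359 lower in females, against 1061 and 233 as deposited. The sex difference had 0 calls in every fit made, and could not be fitted with only 2 groups.

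Small differences turned sign. Timp2 gave -0.035 (1420924_at) and -0.0002 (1460287_at) in females with quantile normalization, -0.077 (1420924_at) in females and 0.026 (1460287_at) in males without both SHS arrays numbered 4, and 0.0093 (1460287_at) in males with array weights. With array weights Mmp2 (1416136_at) gave 0.018 and Mmp8 -0.034 in females, and Mmp19 (1421976_at) 0.044 in males. Without both arrays numbered 4, Mmp8 gave -0.047 in females and Mmp19 (1421976_at) 0.13 in males. With 1 array left out, the values in females ran from -0.073 to 0.038 for Mmp2 1416136_at, from -0.077 to 0.060, -0.046 to 0.10 and -0.038 to 0.091 for Timp2 1420924_at, 1433662_s_at and 1437081_at, from -0.014 to 0.24 for Mmp14 1440920_at and from -0.052 to 0.15 for Mmp8. In males they ran from -0.0073 to 0.090 for Mmp2 1416136_at, from -0.020 to 0.052, -0.069 to 0.0011, -0.13 to 0.039 and -0.032 to 0.026 for Timp2 1420924_at, 1433662_s_at, 1437081_at and 1460287_at, from -0.018 to 0.084 for Mmp14 1416572_at, from -0.007 to 0.13 for Mmp8 and from -0.20 to 0.13 for Mmp19 1421976_at. The causes were not tested. Timp4, Mmp8 and Timp2 at 1437081_at were read from dim probe sets, with means at the 13.4 to 39.2 percentile. Of the called genes outside the members, Adamts4 (35.5 percentile), Il6 (35.7), Thbs2 (37.9) and Adam12 (40) were also read from dim probe sets.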

Other observations

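Mmp13 and Adam8 were chosen after their values were seen. Mmp13, a collagenase, measured 7.32, 8.68, 7.73 and 6.19 in SHS females, against 6.19, 6.82, 6.30 and 5.84 in air females (1.19 ± 0.37, adjusted p = 0.1, limma). In SHS males it measured 7.75, 7.71, 7.78 and 6.60, against 8.31, 8.07, 8.18 and 7.81 in air males (-0.63 ± 0.37, adjusted p = 0.367). All 4 SHS males thus lay below all air males, as they did for 7.51% of all probe sets. The effect in females minus that in males was 1.82 ± 0.53 and did not pass the test (adjusted p = 0.434). Without SHS female 4 the female difference was 1.62 ± 0.31 (adjusted p = 0.00315). Adam8, a leukocyte metalloproteinase of the ADAM family, gave 0.71 in females (adjusted p = 0.312) and 1.23 ± 0.17 without SHS female 4 (adjusted p = 0.000294). In males Adam8 gave 0.57 (adjusted p = 0.367, limma) and 0.78 without SHS male 4 (adjusted p = 0.225). Under 2 of the 25 alternatives it was called higher in males.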
